A study of Mus musculus with 12 samples.

Results

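Gapdh, Actb, Ppia, Tbp, Ywhaz, Gusb, Tubb5 and Eef1a1 are genes commonly used as references, against which the RNA of other genes is scaled. Here these 8 genes, found by their names in the deposited tables, were followed across a knockdown experiment in Hepa 1-6 cells, a mouse hepatoma line described as wild type. They are 8 of 24326 genes with counts and 8 of the 15965 that passed a filter on low counts, so all 8 passed. The list was proposed with these libraries' values known, among them a difference in Gapdh between groups. The differences of these 8 genes between siRNA groups and between library numbers are therefore given as descriptions, without a test. The 4 groups of 3 libraries are these. The siERRa group received a pool of small interfering RNAs that targets Esrra, which encodes ERRα, a nuclear receptor with no known natural ligand. In the siHCFC1 group the pool targets Hcfc1, which encodes HCFC1, a coregulator bound to chromatin. The siERRa+siHCFC1 group received both pools, and the siC group a scrambled control pool. All cells were transfected at plating and again 48 h later, 100 nM each time, and were harvested at 96 h. The labels do not state how the combined group shared this dose between its pools. All libraries come from 1 transformed cell line, and the labels do not say whether the libraries of a group are separate cultures, so p-values here reflect only how far these libraries vary, in part perhaps for technical reasons.

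A reference gene is chosen on the assumption that its RNA level does not change with the treatment, so that a ratio to it removes differences in the amount of input RNA. The 8 genes serve unrelated tasks. Gapdh encodes glyceraldehyde-3-phosphate dehydrogenase of glycolysis, Actb cytoplasmic β-actin and Tubb5 a β-tubulin. Eef1a1 encodes the elongation factor that brings aminoacyl-tRNA to the ribosome, Ppia the peptidyl-prolyl isomerase cyclophilin A, and Ywhaz a 14-3-3 adaptor protein. Gusb encodes the lysosomal enzyme β-glucuronidase, and Tbp the TATA-binding protein of the general transcription factor TFIID. Several of these genes have many processed pseudogenes, intronless copies of the messenger RNA scattered over the genome, and Gapdh is a well known case in rodents.

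Depth ran from 21.4 M to 33.2 M gene counts per library. Levels per library below are counts relative to the library total (CPM), scaled by trimmed mean of M values (TMM). Levels between genes are compared in the deposited TPM, which allow for gene length. The cell type markers are an exception, given in CPM without TMM scaling or allowance for gene length. Esrra had 8.65, 16.9 and 10.5 CPM in siERRa libraries 1, 2 and 3, 18.9, 20.5 and 12.5 CPM in siERRa+siHCFC1 libraries, and 46.4, 42.7 and 52.1 CPM in siC libraries. It fell by 1.97 on the log2 scale in siERRa (SE 0.26, adjusted p = 0.00702) and by 1.44 in siERRa+siHCFC1 (SE 0.26, adjusted p = 0.00478) in edgeR's quasi-likelihood test with Benjamini-Hochberg adjustment. Hcfc1 had 96.5, 126 and 66.2 CPM in siHCFC1 libraries, 119, 131 and 88.7 CPM in siERRa+siHCFC1 libraries, and 179, 142 and 198 CPM in siC libraries. Its log2 difference from siC was -0.85 in siHCFC1 (SE 0.26, adjusted p = 0.0668) and -0.61 in siERRa+siHCFC1 (SE 0.26, adjusted p = 0.182), short of the threshold of 0.05. Of 9 hepatocyte markers measured, 7 had a mean of at least 1 CPM, led by Alb and Afp, while Ttr was near 0, with 0 to 0.923 CPM. Of 3 leukocyte and macrophage markers measured, Ptprc and Adgre1 were near 0, with at most 0.172 and 0.784 CPM, while Cd68, a lysosomal glycoprotein, averaged 55.4 CPM. The summed level of these 3 markers, nearly all of it Cd68, was 67.3 to 93.7 CPM in siC. Without overlap, it was 44.5 to 64.5 CPM in siERRa, 30.9 to 57.4 CPM in siHCFC1 and 27.9 to 46.3 CPM in siERRa+siHCFC1. Hepatocyte marker sums in siERRa also lay apart from siC (6882 to 9353 against 4032 to 6804 CPM). So did endothelial Pecam1 in siERRa+siHCFC1 (0.348 to 1.54 against 0.0892 to 0.283 CPM). All other marker sums overlapped with siC. Over all genes tested, ranges of TMM-scaled CPM did not overlap in 16.3%, 27.3% and 30% of genes in siERRa, siHCFC1 and siERRa+siHCFC1. Of 4 fibroblast and stellate markers, Dcn, which encodes the matrix proteoglycan decorin, averaged 4204 CPM, beside 4344 CPM for Alb, while Col3a1 and Pdgfrb were near 0, with at most 0.559 and 0.350 CPM. Of the 3 cholangiocyte markers, Krt7 and Epcam averaged 39.2 and 50.5 CPM and Krt19 8.40 CPM, and the endothelial marker Pecam1 had at most 1.54 CPM. What part these levels have in the results was not tested. The libraries numbered 2 had the highest mitochondrially encoded share of counts in every group, with 10.1%, 10.3%, 14.5% and 6.54% in siERRa, siHCFC1, siERRa+siHCFC1 and siC, within a range of 2.37% to 14.5% over all libraries.

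Gapdh lies on the minus strand of chr6:125161715-125166467 (mm10). Over its exon bases, 68 of 4133 (1.65%) overlap exons of Iffo1 on the other strand, and the kit does not mark the strand of a read. The larger sharing is with its pseudogenes. An annotated pseudogene was taken as a copy where it shares at least 100 words of 31 bases with the gene's transcripts. Gapdh had 125 such copies, 113 of them in the count table. The 3 copies with the most counts were Gm5559 on chromosome 5, Gm7336 on chromosome 7 and Gm12070 on chromosome 11. Over the 999 bases of the Gapdh coding sequence, Gm7336 had 0 differences, Gm5559 had 1 and Gm12070 had 1. The 60 coding bases that hold these differences are shown, because they let a reader see how little there is in a read to tell the gene from its copies. Each line runs 5′ to 3′ along the transcript, and capitals mark the only bases of the whole coding sequence at which a copy differs, in Gapdh and in the copy that differs. The sequences are those of GENCODE transcripts on GRCm38, the mm10 assembly, and the stretches are chr6:125162977-125163036 on the minus strand for Gapdh and, on the plus strand, chr5:95862039-95862098 for Gm5559, chr7:51747022-51747081 for Gm7336 and chr11:26786958-26787017 for Gm12070.
Gapdh: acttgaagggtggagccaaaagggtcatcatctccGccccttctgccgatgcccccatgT
Gm5559: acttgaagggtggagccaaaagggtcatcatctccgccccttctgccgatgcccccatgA
Gm7336: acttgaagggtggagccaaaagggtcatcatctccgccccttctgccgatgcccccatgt
Gm12070: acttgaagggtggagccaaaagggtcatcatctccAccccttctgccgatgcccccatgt
A read inside the coding sequence that misses the marked base thus matches the gene and the copy equally well, across exon junctions too, since the copies hold the exons joined. How such reads were assigned is not given in the sources used here. The Gapdh values below are uncertain in that way.

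Gapdh varied over a far wider range than the other 7 genes. It had 657, 568 and 1350 CPM in siERRa libraries 1, 2 and 3, from 17033, 13293 and 47045 counts. In siHCFC1 it had 848, 137 and 932 CPM, from 17672, 3242 and 27172 counts. Every siERRa library lay above every siC library, while siHCFC1 library 2 lay close to siC and the other two lay far above. In siERRa+siHCFC1 it had 1088, 172 and 70.1 CPM, from 27984, 3526 and 2107 counts, and in siC 62.3, 115 and 82.5 CPM, from 1458, 3315 and 2061 counts. In the combined group library 1 was as high as the single knockdowns, and library 3 lay inside the range of siC. Ranked over all 12 libraries, 6 lay at 568 CPM or above and 6 at 172 CPM or below, with a 3.31-fold gap between these values. No other gene of the list had a gap between neighbouring libraries wider than 1.51-fold (Ppia). By TPM the group means were 638 ± 309 in siERRa, 463 ± 329 in siHCFC1, 317 ± 412 in siERRa+siHCFC1 and 66.5 ± 18.4 in siC (SD, n = 3 each). Between lowest and highest library, Gapdh differed 21.7-fold in CPM and held 0.00650% to 0.142% of all counts. Among the 2326 genes that averaged at least 100 CPM, it had the third widest range on the log2 scale (4.43), after Fosb (7.57) and Cxcl15 (4.70).

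**Figure D1:**
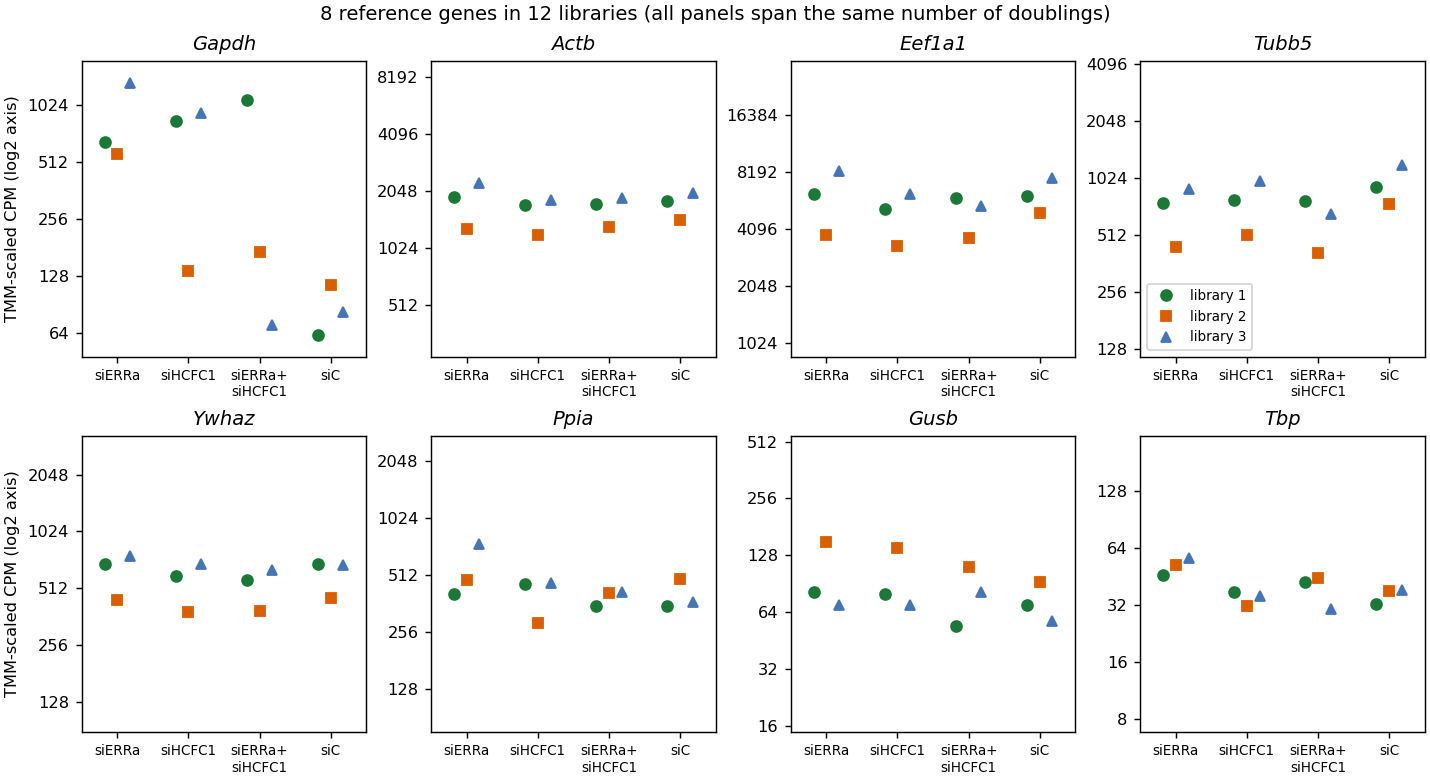
TMM-scaled CPM of the 8 genes in the 12 libraries on a log2 axis, with 1 point per library, shaped and coloured by library number, and groups from siERRa at the left to siC at the right. All panels span the same number of doublings: Gapdh runs from 62.3 to 1350 CPM, and libraries numbered 2 are the lowest of each group for Actb, Eef1a1, Tubb5 and Ywhaz and the highest for Gusb.

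In the edgeR fit the log2 difference of Gapdh from siC was 3.31 in siERRa (SE 0.86, 9.91-fold), 2.88 in siHCFC1 (SE 0.84, 7.37-fold) and 2.36 in siERRa+siHCFC1 (SE 0.83, 5.12-fold), 3 comparisons that share the siC libraries. Without library 1 of the combined group, its difference was 0.47 in place of 2.36. The authors' deposited table gave 3.33, 2.91 and 2.38 for the same comparisons, with adjusted p = 2.43e-22, 0.00436 and 0.137, the lowest of its table in siERRa. The first 2 of these lie below 0.05, but they come from the same libraries whose Gapdh difference was known when the list was proposed. They are given as deposited, and nothing is read from them. In the main edgeR fit, which has no term for library number, 0 of the 8 genes were called in each comparison, where called means an adjusted p below 0.05. The shares of all 15965 genes called were 0.438% in siERRa (0.138% higher and 0.301% lower than in siC), 6.68% in siHCFC1 (2.46% higher and 4.22% lower) and 6.89% in siERRa+siHCFC1 (2.83% higher and 4.06% lower). With library number as a term in the fit, 3, 3 and 2 of the 8 were called, beside 10.2%, 24.9% and 25.5% of all genes. Nothing is read from the counts of these 8 against either set of shares, since the list was chosen with these differences known. Group ranges did not overlap with siC for Gapdh and Tbp in siERRa and for Gapdh in siHCFC1, each time with the knockdown higher, and for 0 of the 8 genes in siERRa+siHCFC1. Over all genes tested, ranges did not overlap with siC in 16.3% of genes in siERRa (7.17% higher and 9.16% lower), 27.3% in siHCFC1 (11.5% higher and 15.8% lower) and 30% in siERRa+siHCFC1 (13.3% higher and 16.7% lower).

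The other genes of glycolysis did not share the pattern of Gapdh in size. In edgeR 0 of 14 tested genes, from the hexokinases to lactate dehydrogenase, were called in each of the 3 comparisons, with 0, 1 and 2 at an unadjusted p below 0.05 in siERRa, siHCFC1 and siERRa+siHCFC1. Over all genes tested, the shares at an unadjusted p below 0.05 were 10.3%, 21% and 21.1%, the background for this count here and in the lists below. With library number as a term in the fit, 0, 7 and 2 of the 14 were called, all lower than in siC, beside 10.2%, 24.9% and 25.5% of all genes. Calls in the lists below depend on this term too, as given in the closing section. The log2 differences of the 14 genes ran from -0.23 to 0.19 in siERRa, from -0.61 to 0.10 in siHCFC1 and from -0.91 to 0.21 in siERRa+siHCFC1. Their medians were 0.05, -0.29 and -0.05, beside 0.01, 0.00 and -0.01 over all genes tested. Tpi1, the triose phosphate isomerase that makes the substrate of Gapdh, had 1204, 705 and 1561 CPM in siERRa and 1262, 905 and 1354 CPM in siC, and ranged 2.22-fold over the 12 libraries. Pgk1, the phosphoglycerate kinase that uses its product, had 2159, 1070 and 2570 CPM in siERRa and 2138, 1462 and 2188 CPM in siC, and its range of 2.96-fold was the widest of the 14. Both enzymes thus overlapped between the groups in which Gapdh did not. By TPM, Gapdh stood far below its neighbours in siC, at 66.5 ± 18.4 against 1368 ± 318 for Tpi1 and 2758 ± 660 for Pgk1. In siERRa it had 638 ± 309 TPM, against 1299 ± 488 for Tpi1 and 2670 ± 1094 for Pgk1 (SD, n = 3 each). Of the adjacent genes on chromosome 6, Iffo1 had 18.7, 27.4 and 21.8 CPM in siERRa and 18.0, 30.0 and 25.2 CPM in siC, and Ncapd2 had 149, 138 and 108 CPM in siERRa and 199, 174 and 178 CPM in siC. The testis isoform gene Gapdhs had at most 6.37 CPM in any library.

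**Figure D2:**
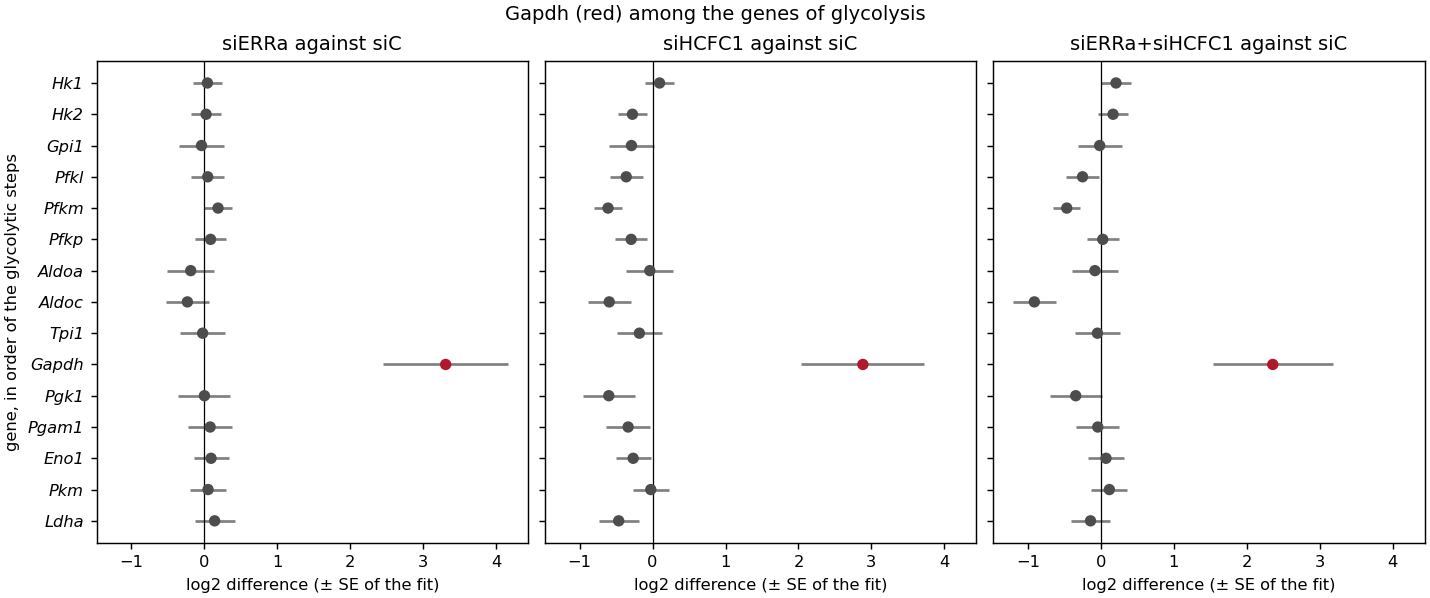
Log2 difference from siC (edgeR fit, bars are the SE of the fit) of Gapdh, in red, and 14 other glycolytic genes in the order of the pathway, with 1 panel per knockdown. Gapdh lies at 3.31, 2.88 and 2.36, while the other genes lie between -0.91 and 0.21.

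Counts assigned to the Gapdh copies moved far less than counts assigned to Gapdh. Summed over the 113 copies they made 287, 168 and 362 CPM in siERRa, 297, 156 and 288 CPM in siHCFC1, 352, 162 and 237 CPM in siERRa+siHCFC1, and 202, 158 and 269 CPM in siC. The groups overlap, and the highest library had 2.32 times the lowest. Relative to the gene itself, the copies held 26.8% to 43.6% of the Gapdh counts in siERRa and 137% to 327% in siC, so that in siC more reads were assigned to the copies than to the gene. Of the 63 copies that passed the filter 0 were called in any comparison, and 41, 33 and 43 had log2 differences above 0 in siERRa, siHCFC1 and siERRa+siHCFC1. Gm5559 had 118, 67.7 and 142 CPM in siERRa and 60.5, 55.7 and 93.5 CPM in siC, and its log2 difference of 0.65 (SE 0.35) had an edgeR adjusted p of 0.593. With the copies added to the gene, Gapdh had 944, 736 and 1712 CPM in siERRa, 1145, 293 and 1220 CPM in siHCFC1, 1440, 333 and 307 CPM in siERRa+siHCFC1, and 264, 273 and 352 CPM in siC. The same 6 libraries were again the highest. The log2 differences from siC then were 1.93 (SE 0.59, 3.82-fold) in siERRa, 1.58 (SE 0.58) in siHCFC1 and 1.23 (SE 0.58) in siERRa+siHCFC1. Whether the assignment of reads between the gene and its copies plays a part in the differences was not tested.

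**Figure D3:**
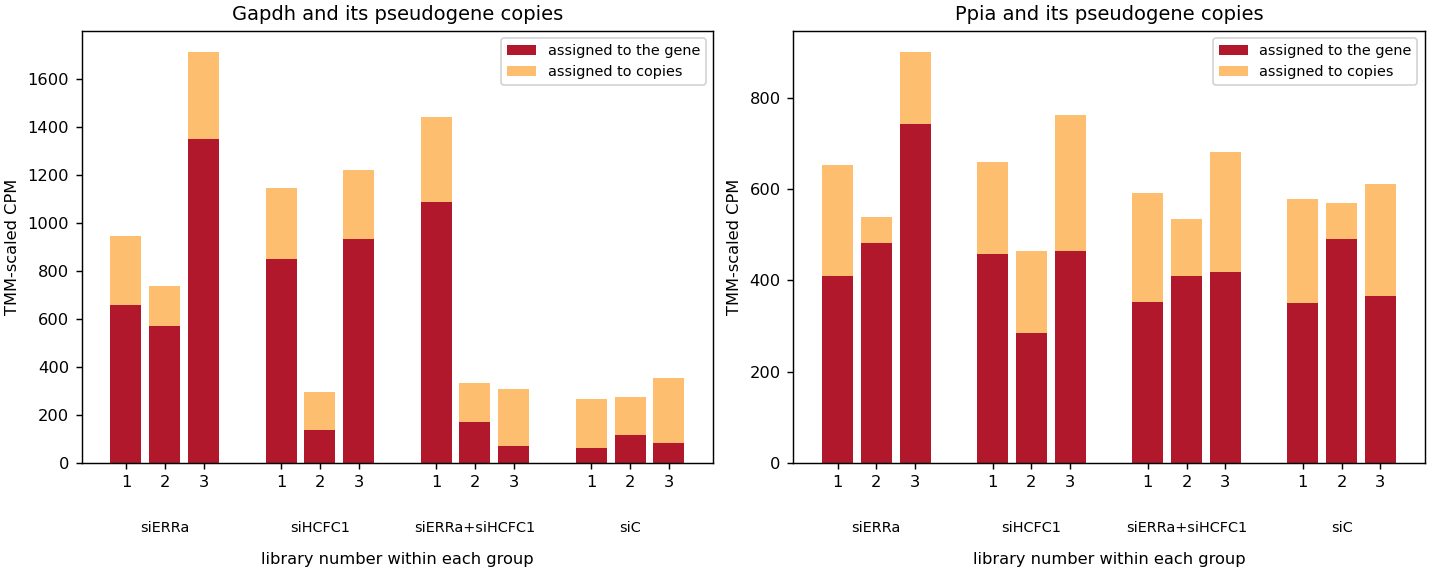
TMM-scaled CPM assigned to Gapdh (left) or Ppia (right), in red, and to their annotated pseudogene copies, in yellow, stacked for each of the 12 libraries, with groups from siERRa to siC. For Gapdh the copies stay between 156 and 362 CPM while the gene runs from 62.3 to 1350; for Ppia the gene and its copies together make 464 to 901 CPM over the 9 knockdown libraries and 570 to 611 CPM in siC.

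The cytoskeletal genes were high and differed mainly by library number. Actb, on chromosome 5, averaged 1940 TPM over the 12 libraries. It had 1904, 1298 and 2260 CPM in siERRa, 1734, 1202 and 1842 CPM in siHCFC1, 1747, 1320 and 1872 CPM in siERRa+siHCFC1, and 1824, 1432 and 1991 CPM in siC. Library 2 was the lowest in all 4 groups, and the groups overlapped. Its log2 differences from siC were 0.06, -0.13 and -0.09 in siERRa, siHCFC1 and siERRa+siHCFC1 (SE 0.26 each). Of 22 tested genes of the actin cytoskeleton and its regulation 0 were called in each comparison, and 1, 2 and 1 had an unadjusted p below 0.05. Tubb5, on chromosome 17, averaged 700 TPM. It had 756, 440 and 899 CPM in siERRa, 786, 513 and 989 CPM in siHCFC1, 777, 410 and 663 CPM in siERRa+siHCFC1, and 916, 745 and 1208 CPM in siC. The means of all 3 knockdowns lay below siC, but the ranges overlapped, with library 2 the lowest in every group. The log2 differences of Tubb5 were -0.45, -0.33 and -0.63 (SE 0.32 each), the lowest of the 8 genes in siERRa and siERRa+siHCFC1. Of 18 other tubulin genes and tubulin-handling genes tested, 0 were called in each comparison, with 0, 3 and 2 at an unadjusted p below 0.05.

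Eef1a1, on chromosome 9, was the most abundant of the 8 genes, with 6856 TPM on average and 0.291% to 0.868% of all counts. It had 6294, 3815 and 8265 CPM in siERRa, 5229, 3305 and 6291 CPM in siHCFC1, 5974, 3657 and 5420 CPM in siERRa+siHCFC1, and 6106, 4962 and 7595 CPM in siC. Library 2 was again the lowest of each group, and no group stood apart. The log2 differences were -0.02, -0.33 and -0.31 (SE 0.32 each). Its 8 measured pseudogene copies held 2.67% to 3.58% of its counts, and Gm26377 overlaps 4.33% of its exon bases on the same strand. A list of other elongation factors, their subunits and associated proteins had 6 genes tested. Of these, Eef1g, which encodes the γ subunit of the complex that reloads the Eef1a1 factor with GTP, fell in siERRa+siHCFC1. It had 583, 405 and 488 CPM there and 977, 874 and 1084 CPM in siC, with no overlap (log2 -0.99, SE 0.24, edgeR adjusted p = 0.0236). That call was lost without siERRa+siHCFC1 library 2 or 3 or siC library 1 or 3, where the adjusted p reached 0.103. The call was also lost with limma on log2(TPM + 0.5) (adjusted p = 0.0539) and without library 3 of every group (adjusted p = 0.134). Eef1g lay below every siC library in siHCFC1 too, with 528, 470 and 680 CPM, but was not called there. In siERRa it had 763, 597 and 1028 CPM and overlapped with siC. In siERRa and siHCFC1 0 genes of this list were called, with 0 and 3 at an unadjusted p below 0.05, where 10.3% and 21% of all genes tested passed, and all 6 log2 differences lay below 0 in both groups that received the Hcfc1 pool (medians -0.59 each).

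Ppia, on chromosome 11, averaged 376 TPM. It had 409, 481 and 744 CPM in siERRa, 459, 284 and 464 CPM in siHCFC1, 352, 410 and 419 CPM in siERRa+siHCFC1, and 349, 491 and 367 CPM in siC. Library 3 of siERRa stood above all others, and the groups overlapped. The log2 differences were 0.44, 0.00 and -0.03 (SE 0.26 each), and without library 3 of every group the one in siERRa was 0.10. Its 13 measured copies, mostly Gm10123, held 12.2% to 67.9% of its counts. Gm10123 had 234, 49.8 and 146 CPM in siERRa and 220, 72.4 and 234 CPM in siC. Its lowest value fell in library 2 of every group, where Ppia was highest only in siC. In library 2 of siERRa and siERRa+siHCFC1 Ppia lay between the other libraries. In siHCFC1 library 2 gene and copy were both lowest of the group, with 284 CPM for Ppia and 174 CPM for Gm10123. Gene and copies together gave 653, 540 and 901 CPM in siERRa and 579, 570 and 611 CPM in siC, and the SD over the 12 libraries on the log2 scale was 0.25 for the sum and 0.34 for Ppia alone. Of 15 other cyclophilin genes tested, Ppif, the mitochondrial cyclophilin D, fell in siHCFC1, with 10.2, 12.5 and 11.8 CPM against 23.1, 21.1 and 23.3 CPM in siC (log2 -0.97, SE 0.19, edgeR adjusted p = 0.00878). It remained called with each library left out in turn. In siERRa and siERRa+siHCFC1 0 of the 15 were called, with 0 and 4 at an unadjusted p below 0.05. Ppif lay below every siC library in siERRa+siHCFC1 too, with 13.0, 15.4 and 16.2 CPM. In siERRa it overlapped with siC, with 21.6, 23.9 and 27.6 CPM.

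Ywhaz, on chromosome 15, averaged 433 TPM and followed Actb closely. It had 692, 446 and 758 CPM in siERRa, 597, 384 and 688 CPM in siHCFC1, 568, 389 and 643 CPM in siERRa+siHCFC1, and 689, 455 and 676 CPM in siC. Library 2 was the lowest of each group, and the log2 differences of 0.06, -0.13 and -0.19 were each smaller than their SE of 0.28. The other 6 genes of the 14-3-3 family gave 0 calls in each comparison, with 0 at an unadjusted p below 0.05, and log2 differences between -0.22 and 0.60 in siERRa.

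Gusb, on chromosome 5, averaged 57.6 TPM and ran against the cytoskeletal genes. It had 81.8, 150 and 69.6 CPM in siERRa, 80.1, 140 and 69.7 CPM in siHCFC1, 54.2, 112 and 81.3 CPM in siERRa+siHCFC1, and 70.2, 91.9 and 57.5 CPM in siC. Library 2 was the highest of each group, and the groups overlapped. The log2 differences were 0.46, 0.40 and 0.17 (SE 0.34 each). Among 17 other lysosomal hydrolases of sugar chains tested, Naglu, which removes N-acetylglucosamine from heparan sulfate, fell in siHCFC1 to 5.71, 11.1 and 5.93 CPM, against 21.8, 26.7 and 17.8 CPM in siC (log2 -1.54, SE 0.33, edgeR adjusted p = 0.0133). The call of Naglu in siHCFC1 was lost without siHCFC1 library 1 or 3 or siC library 2 (adjusted p up to 0.0653). Naglu also fell in siERRa+siHCFC1 (log2 -1.62, SE 0.33, edgeR adjusted p = 0.00992), and so did Ids, iduronate 2-sulfatase, to 10.2, 5.16 and 2.89 CPM against 21.1, 15.4 and 20.9 CPM in siC (log2 -1.66, SE 0.38, edgeR adjusted p = 0.0174). The call of Ids was lost without siERRa+siHCFC1 library 2 or 3 or siC library 1 or 3 (adjusted p up to 0.0707). Ids also lay below every siC library in siERRa (15.3, 11.2 and 10.1 CPM) and in siHCFC1 (10.6, 6.32 and 8.23 CPM), without a call. In siERRa 0 of the 17 were called, with 2 at an unadjusted p below 0.05.

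Tbp, on chromosome 17, had the lowest level of the 8 genes, with 8.98 TPM on average. It had 46.2, 51.8 and 56.4 CPM in siERRa, 37.6, 31.6 and 35.7 CPM in siHCFC1, 42.5, 44.3 and 30.3 CPM in siERRa+siHCFC1, and 32.6, 37.8 and 38.5 CPM in siC. All siERRa libraries lay above all siC libraries, and the other groups overlapped with siC. The log2 differences were 0.50, -0.05 and 0.10 (SE 0.19 each). The gene Pdcd2 on the other strand overlaps 19.0% of the exon bases of Tbp, so some reads cannot be assigned to one of them. Of 21 tested TFIID subunits and related factors, Taf7 rose in both groups that received the Hcfc1 pool, with 22.9, 15.6 and 37.1 CPM in siHCFC1, 23.1, 20.1 and 34.1 CPM in siERRa+siHCFC1 and 4.44, 4.23 and 11.4 CPM in siC. Its log2 differences were 1.91 (SE 0.41, edgeR adjusted p = 0.0130) in siHCFC1 and 1.94 (SE 0.41, edgeR adjusted p = 0.0114) in siERRa+siHCFC1. In siERRa Taf7 had 12.7, 9.10 and 16.1 CPM, a mean of 12.6 CPM against 6.71 CPM in siC. The ranges overlapped there, and Taf7 was not called. The call of Taf7 in siHCFC1 was lost without siC library 1 or 2 (adjusted p up to 0.0700) and with limma on log2(TPM + 0.5) (adjusted p = 0.0511), and the one in siERRa+siHCFC1 without siC library 1 (adjusted p = 0.0626). Taf6, a histone-fold subunit, fell in siHCFC1, with 12.2, 8.09 and 15.7 CPM against 31.9, 26.3 and 26.8 CPM in siC (log2 -1.24, SE 0.24, edgeR adjusted p = 0.00850), and was called with each library left out in turn. It had 16.1, 12.8 and 17.8 CPM in siERRa+siHCFC1 (log2 -0.86, SE 0.24, edgeR adjusted p = 0.0452), a call that held in 3 of the 12 fits with 1 library left out, those without siERRa library 2 or siHCFC1 library 2 or 3, and had an adjusted p of up to 0.177 in the others. In siERRa 0 of the 21 were called, with 2 at an unadjusted p below 0.05.

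The SD of log2(CPM + 0.5) over the 12 libraries was 1.70 for Gapdh and lay between 0.28 and 0.47 for the other 7 genes. From low to high the others were Tbp (0.28), Actb (0.28), Ppia (0.34), Ywhaz (0.35), Eef1a1 (0.41), Gusb (0.46) and Tubb5 (0.47). The median over all genes tested was 0.45, and 0.32 over the 2326 genes of at least 100 CPM, of which 99.9% had a smaller SD than Gapdh. The sum of squares of each gene was divided into a part between siRNA groups, a part between library numbers and a rest. Library number held 89.4% of it for Ywhaz, 89.0% for Actb, 75.6% for Eef1a1, 71.9% for Gusb and 64.0% for Tubb5. In Tbp and Gapdh the siRNA group held more, with 66.5% and 55.4%, and library number 0.810% and 8.36%. Ppia had its largest part, 54.2%, in the rest. As a background, the median share held by library number was 28.1% over all genes tested and 50.5% over the 2326 genes of at least 100 CPM. The median share held by siRNA group was 38.3% and 34.8% in these 2 sets. Libraries numbered 2 lay below the mean of numbers 1 and 3 on the log2 scale by 0.53 for Actb, 0.66 for Ywhaz, 0.70 for Eef1a1 and 0.75 for Tubb5, and above it by 0.79 for Gusb. Over all genes tested, a test of library number with 2 degrees of freedom in edgeR called 38.1% (6082 genes), and nothing is read from the calls of the 8 genes. The labels give the number only as a replicate number, and its relation to the mitochondrial share, also highest in libraries 2, was not tested.

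**Figure D4:**
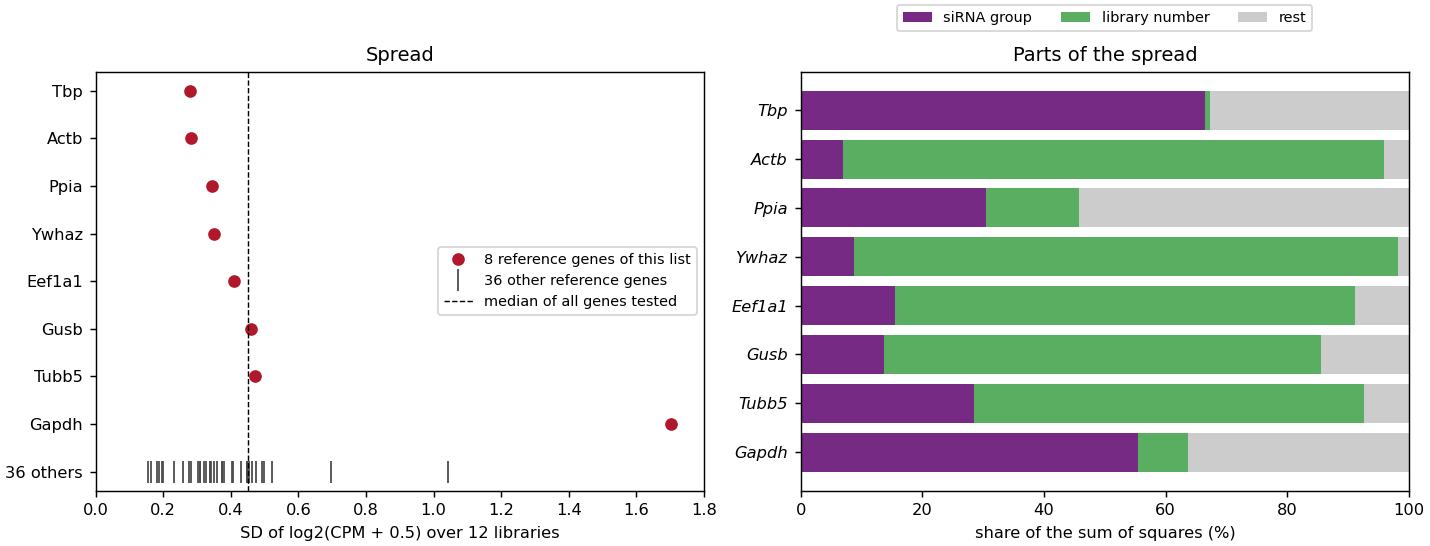
Left, SD of log2(CPM + 0.5) over the 12 libraries for the 8 genes (red points), for 36 other reference genes (grey ticks) and as the median of all genes tested (dashed line, 0.45). Right, the share of each gene's sum of squares that lies between siRNA groups (purple), between library numbers (green) or in the rest (grey): Gapdh has the widest spread, 1.70, and Ywhaz and Actb the largest shares by library number.

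Ratios within the list showed which genes moved together. The log2 ratio of Actb to Ywhaz had an SD of 0.10 over the 12 libraries, that of Ywhaz to Eef1a1 0.15 and that of Actb to Eef1a1 0.16. The pairs of Gusb with Eef1a1 and Tubb5 had SDs of 0.84 and 0.90. All 7 pairs that include Gapdh had SDs from 1.54 (with Tbp) to 1.83 (with Gusb). Averaged over its pairs with the other genes except Gapdh, the SD was lowest for Actb (0.33), Ywhaz (0.35) and Eef1a1 (0.37), and highest for Gusb (0.72). Among 9158 other protein-coding genes with a mean of at least 5 TPM, those with the steadiest log2 ratio to each gene over the 12 libraries were also found. For Actb these were Cct8 and Crls1, with SDs of 0.05 and 0.07, for Eef1a1 Rpl4 and Gdi2 (0.07 and 0.08), for Ywhaz Mapre1 and Zfp706 (0.09 each), and for Tubb5 Cct4 and Ube2j1 (0.13 and 0.15). For Tbp they were Mtg2 and Abcf3 (0.15 and 0.16), for Gusb Man2b1 (0.17), and for Ppia Cox6c and Mmd (0.18 and 0.20). Gapdh had no such near match: its nearest genes, Hist1h4i and Etfb, had SDs of 1.34 and 1.38, beside a median of 1.74 over all candidates.

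The pattern was set against 36 other genes used as references, 25 classical ones and 11 proposed from RNA sequencing of human tissues, all of which passed the filter. In siERRa 0 of the 36 were called, with 3 at an unadjusted p below 0.05, and their log2 differences ran from -0.67 to 0.62. In siHCFC1 2 of the 36 were called and in siERRa+siHCFC1 also 2, all lower than in siC, where 6.68% and 6.89% of all genes tested were called, so these counts lie near the background. Ipo8, the nuclear import receptor importin 8, fell in both. It had 14.1, 13.6 and 10.7 CPM in siHCFC1 and 12.9, 10.3 and 6.52 CPM in siERRa+siHCFC1, against 51.4, 43.2 and 53.3 CPM in siC. Its log2 difference was -1.94 in siHCFC1 (SE 0.25, edgeR adjusted p = 0.000536) and -2.32 in siERRa+siHCFC1 (SE 0.25, edgeR adjusted p = 0.000263). Ipo8 had 43.7, 32.9 and 34.0 CPM in siERRa. It remained called in both comparisons with each library left out in turn. Rps18, a protein of the small ribosomal subunit, fell in siHCFC1 with 341, 346 and 443 CPM against 638, 619 and 763 CPM in siC (log2 -0.84, SE 0.24, edgeR adjusted p = 0.0494), a call kept in 2 of 12 fits with 1 library left out, those without siERRa library 2 or 3, with an adjusted p of up to 0.189 in the others. Rplp0, a protein of the ribosomal stalk, fell in siERRa+siHCFC1 with 1666, 1244 and 1401 CPM against 2611, 2455 and 3124 CPM in siC (log2 -0.93, SE 0.26, edgeR adjusted p = 0.0452), a call kept in 4 of 12 such fits, those without siERRa or siHCFC1 library 2 or 3, with an adjusted p of up to 0.174 in the others. Each of these 2 ribosomal genes also lay below every siC library in the other group with the Hcfc1 pool, though not called there in the main fit. Rps18 had 475, 383 and 386 CPM in siERRa+siHCFC1, and Rplp0 had 1498, 1277 and 1813 CPM in siHCFC1. With DESeq2, and with library number as a term in the edgeR fit, both genes were called in both groups. The median log2 differences of the 36 genes were 0.00, -0.08 and -0.02 in siERRa, siHCFC1 and siERRa+siHCFC1.

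Over the 12 libraries Vps29, a retromer subunit, and Sdha, a subunit of succinate dehydrogenase, were among the steadiest of the 36, with SDs of 0.16 and 0.18 on the log2 scale. Ipo8 (1.04) and Pgk1 (0.52) were among the most variable, and the SD of Gapdh (1.70) lay above all 36, whose median was 0.34. The test of library number called 29 of the 36, beside the 38.1% of all genes tested, a background not matched for level. The median share of the sum of squares held by library number was 56.8% in the 36. It was 50.5% in the genes of at least 100 CPM. Sdha had 92.0% of its sum of squares between siRNA groups and 3.52% between library numbers.

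Scaling to a single reference gene was carried through for the 2 siRNA targets to show what the choice of gene does to a measured knockdown. Scaled to Gapdh, as a ratio of levels in the same library, Esrra in siERRa lay 37.1-fold below siC, where TMM scaling gave 3.93-fold. Scaled to each of the other 7 genes it lay between 2.81-fold (Tubb5) and 5.55-fold (Tbp) below siC, and with the mean of these 7 genes 4.27-fold. For Hcfc1 in siHCFC1, Gapdh gave 10.4-fold below siC, TMM scaling 1.84-fold, and the other genes 1.43-fold (Eef1a1) to 2.35-fold (Gusb). The ranges of Hcfc1 in siHCFC1 and siC did not overlap with TMM, Gapdh or Gusb, and overlapped with the other 6 genes. Untargeted genes shift in the same way by construction, since scaling subtracts the same log2 value from every gene of a library. The shares and medians over all genes below therefore restate the group difference of the scaling gene itself. Scaled to Gapdh, Hcfc1 in siERRa, which received no Hcfc1 siRNA, lay 11.3-fold below siC, against 1.2-fold with TMM, and 99.99% of all genes tested had a negative difference in siERRa, with a median of -3.25 on the log2 scale. Scaled to Actb the median of all genes was -0.04 in siERRa, 0.13 in siHCFC1 and 0.07 in siERRa+siHCFC1, and the widest of these shifts, 0.13, was narrower than that of any other single gene of the 8. Scaled to Tubb5 the medians were 0.48, 0.33 and 0.64, and scaled to Tbp -0.51, 0.04 and -0.10.

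**Figure D5:**
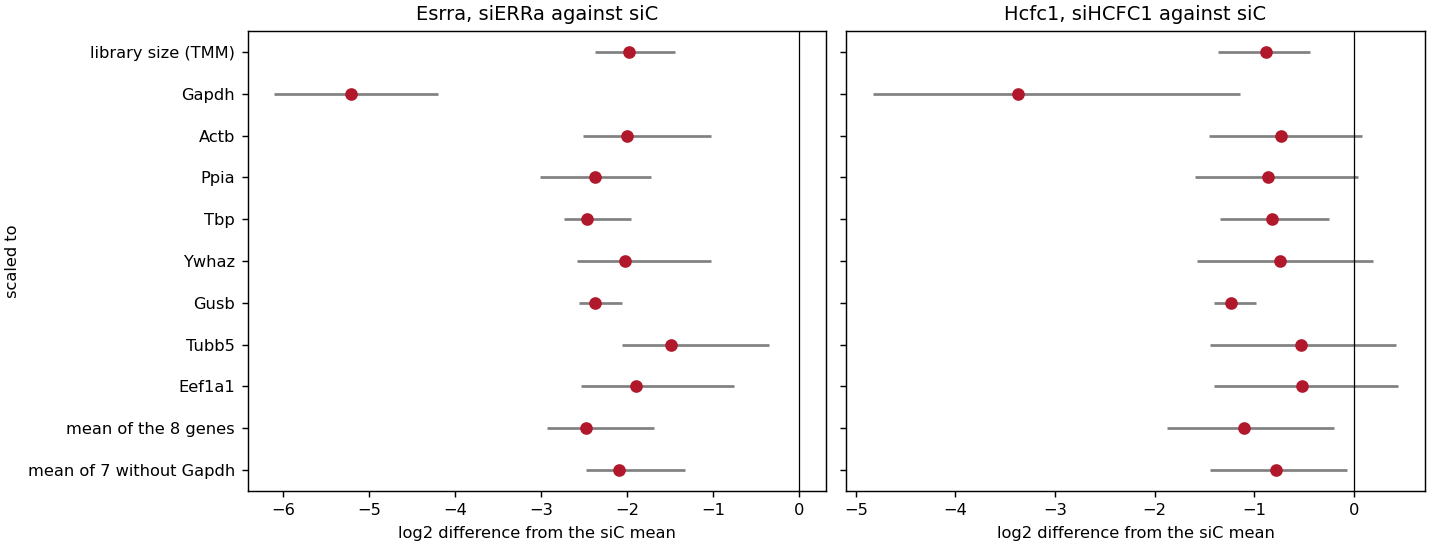
Log2 difference of Esrra in siERRa (left) and Hcfc1 in siHCFC1 (right) from the siC mean when levels are scaled by TMM, by each of the 8 genes, by the mean of all 8 or by the mean of the 7 without Gapdh. Points are means of 3 libraries and lines run from the lowest to the highest library: Gapdh moves Esrra to -5.21, where TMM gives -1.97.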

How the data were processed

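RNA of 12 Hepa 1-6 libraries was analysed. The authors' deposited tables hold whole-number counts per gene for 5 pairwise comparisons, with log2 fold changes and adjusted p-values, and a further deposited table holds TPM. Per the submitters' processing notes, HISAT2 2.0.5, featureCounts 1.5.0-p3, DESeq2 1.20.0 and mm10 were used, with roles not given. The deposited count tables were merged, with 5451 blank cells set to 0, and 60 normalized and FPKM columns were not used. The third TPM column of each group is numbered 4, where the labels have 3, so TPM is given by group only. The main test on these counts was that of edgeR 4.0.16 (run in R 4.3.3 with TMM, filterByExpr, glmQLFTest, 4 group means, 8 residual degrees of freedom, Benjamini-Hochberg over 15965 genes), checked on simulated data. Library number was tested with 2 degrees of freedom. Levels between libraries use log2(CPM + 0.5). Copies were found by shared 31-base words in GENCODE transcripts (edlib 1.3.9.post1 for alignment). Named are all 8 genes, the siRNA targets, called genes of each list, the 3 steadiest and 3 most variable other reference genes, the 2 genes nearest to each member and, chosen after their values were seen, Fosb, Cxcl15, Tpi1, Pgk1, Iffo1, Ncapd2, Gapdhs and the pseudogenes shown. Some genes that this rule names are not reported here. The members and lists were chosen with earlier results of these data known. Alternatives (scaling, filter, DESeq2 1.42.0, limma 3.58.1 on log2(TPM + 0.5), replicate block, libraries left out) are in the closing section.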

Additional observations from a re-analysis of the deposited data

How the results depend on the processing

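For the 3 comparisons in the order siERRa, siHCFC1 and siERRa+siHCFC1 against siC, edgeR called 70, 1066 and 1100 of all genes and 0, 2 and 2 of the 36 other reference genes. With DESeq2 these were 396, 1850 and 1904 genes, with 1, 6 and 3 other reference genes. Without the low-count filter 313 genes were called in siERRa and 5 other reference genes in siHCFC1. With limma on log2(TPM + 0.5) 22 genes were called in siERRa and 1 other reference gene each in siHCFC1 and siERRa+siHCFC1. Without library 3 of every group 1, 259 and 269 genes were called, with 1 other reference gene each in siHCFC1 and siERRa+siHCFC1, and the edgeR adjusted p of Esrra was 0.170 in siERRa and 0.10 in siERRa+siHCFC1, above the threshold of 0.05. The calls of Naglu (adjusted p = 0.0992), Ppif (0.0971) and Rps18 (0.104) in siHCFC1 and of Naglu (0.0857), Ids (0.170), Taf6 (0.127), Rplp0 (0.218) and Eef1g (0.134) in siERRa+siHCFC1 were lost there too. With limma on TPM those of Rps18 (0.0651) and Taf7 (0.0511) in siHCFC1 and of Taf6 (0.0928), Rplp0 (0.181) and Eef1g (0.0539) in siERRa+siHCFC1 were lost, as was Rps18 with RLE scaling (0.0575) and Taf6 in siERRa+siHCFC1 with library size alone (0.0528). With each library left out in turn the counts ran from 8 to 100, 420 to 1130 and 476 to 1271 genes, and from 0 to 0, 1 to 5 and 1 to 2 other reference genes. The count of all genes moved by over 1.5 times in siERRa without any library except siHCFC1 2, siHCFC1 3 and siERRa+siHCFC1 2 (8 without siC 3), in siHCFC1 without siHCFC1 1 or 2 or any siC library (420 without siC 1), and in siERRa+siHCFC1 without any library of that group or of siC (476 without siC 1). The cause of these shifts was not tested. The replicate block (library number as a term) gave 1625, 3974 and 4067 genes and 4, 15 and 10 other reference genes, where 10.2%, 24.9% and 25.5% of all genes were called. With the block 0, 7 and 2 of the 14 glycolytic genes were called, all lower than in siC, and 0, 5 and 4 of the 6 elongation factor and associated genes, all lower. The other lists gave 2, 7 and 8 of 22 (actin), 0, 8 and 6 of 15 (cyclophilins), 2, 7 and 4 of 21 (TFIID), 0, 0 and 0 of 6 (14-3-3), 3, 8 and 8 of 17 (lysosomal) and 2, 5 and 4 of 18 (tubulin). Every main-fit call of Esrra and of a list gene was kept with the block, at an edgeR adjusted p of at most 0.00114 (Taf6 in siERRa+siHCFC1). Each was kept with DESeq2 too, at an adjusted p of at most 0.0143 (Taf6 in siERRa+siHCFC1). Deviations of same-numbered libraries from their group means correlated with r from 0.06 to 0.52 over 18 pairs and those of other numbers from -0.50 to 0.13 over 36 pairs. Not every pair passed the cutoff of 0.1, so the numbers were not taken as pairs in the main fit. Yet all 12 libraries correlated best with one of their own number, and for 11 of them every same-number r exceeded all others. The main fit thus leaves differences between numbers in its residual spread, and it called fewer genes than the fit with the block. Counts by library number stayed within 1.5 times under RLE scaling, library size alone, no filter, DESeq2 and limma. The log2 difference of Gapdh ran from 1.93 to 3.57 in siERRa, 1.58 to 3.38 in siHCFC1 and 0.47 to 2.86 in siERRa+siHCFC1 over all alternatives, the low ends with its copies added (siERRa, siHCFC1) or without siERRa+siHCFC1 library 1. The SD of Gapdh ran from 1.06, with its copies added, to 1.71. The sums with copies and the scaling to the 7 genes other than Gapdh were chosen after seeing the data.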
